A study of Mus musculus with 4 samples.

Results

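The genes described here are those of 9 enzymes and enzyme subunits of the mitochondrial citrate cycle: Cs, Idh3a, Idh3b, Idh3g, Ogdh, Dlst, Suclg1, Fh1 and Mdh2. They were taken by gene symbol from a table of 47069 genes, for their place in the cycle, with succinate dehydrogenase left out, and all 9 were found. Their genes lie on separate chromosomes, Cs (ENSMUSG00000005683) on 10, Idh3a (ENSMUSG00000032279) on 9, Idh3b (ENSMUSG00000027406) on 2, Idh3g (ENSMUSG00000002010) on X, Ogdh (ENSMUSG00000020456) on 11, Dlst (ENSMUSG00000004789) on 12, Suclg1 (ENSMUSG00000052738) on 6, Fh1 (ENSMUSG00000026526) on 1 and Mdh2 (ENSMUSG00000019179) on 5. RNA was sequenced from mouse bone marrow stromal cells (mBMSCs) treated for 3 d in α-MEM with ginkgolic acid (GA, 50 μM) plus dexamethasone (DEX, 1 μM), or with DMSO as the vehicle plus the same dose of DEX, with 2 libraries per group. The cells of both groups were passage P1 adherent cells from tibia and femur of wild type C57BL/6J mice aged 8 weeks. GA is an inhibitor of sumoylation and DEX is a synthetic glucocorticoid that both groups received, so the comparison shows what GA added to DEX and says nothing of DEX itself. Whether libraries of the same treatment represent different animals or culture wells is not stated, and p-values therefore measure the spread between these libraries, which may be technical.

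The citrate cycle runs in the mitochondrial matrix, where it oxidizes the acetyl group of acetyl-CoA to carbon dioxide and passes the electrons to the respiratory chain. Citrate synthase (Cs) joins acetyl-CoA to oxaloacetate. The NAD-dependent isocitrate dehydrogenase, built of a catalytic α subunit (Idh3a) with β (Idh3b) and γ (Idh3g) subunits, and the α-ketoglutarate dehydrogenase complex, with its first (Ogdh) and lipoate-bearing (Dlst) components, carry out the oxidative decarboxylations. Succinyl-CoA ligase (Suclg1 is its α subunit), fumarase (Fh1) and malate dehydrogenase (Mdh2) belong to the stretch that regenerates oxaloacetate. In fat cells citrate is also exported from mitochondria as the carbon source of fatty acid synthesis.

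Promoter windows from RefSeq (build GRCm38.p6), running from 250 bases before to 50 bases after an annotated start, were at hand for 8 of the 9 genes. They are shown for Cs and Ogdh, the genes with the largest and smallest rise among those 8, and for Mdh2, the most abundant of the 9. Capitals mark matches, on either strand, to 6 motifs: the estrogen-related receptor (ERR) element CAAGGTCA, the NRF1 core GCGCATGCG, the cAMP response element TGACGTCA, the E-box CACGTG, the CCAAT box CCAAT and the GC box GGGCGG. Of these, the ERR element and the NRF1 core are bound by factors known to act on many nuclear genes of mitochondria. Overlapping matches run together in 1 stretch of capitals.
Cs, chr10:128337477-128337776, plus strand: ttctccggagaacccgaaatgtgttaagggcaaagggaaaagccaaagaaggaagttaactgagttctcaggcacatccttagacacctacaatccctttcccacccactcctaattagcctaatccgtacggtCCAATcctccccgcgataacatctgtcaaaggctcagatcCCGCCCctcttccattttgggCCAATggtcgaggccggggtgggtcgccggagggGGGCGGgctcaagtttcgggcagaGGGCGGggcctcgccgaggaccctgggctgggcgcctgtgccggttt
Mdh2, chr5:135778399-135778698, plus strand: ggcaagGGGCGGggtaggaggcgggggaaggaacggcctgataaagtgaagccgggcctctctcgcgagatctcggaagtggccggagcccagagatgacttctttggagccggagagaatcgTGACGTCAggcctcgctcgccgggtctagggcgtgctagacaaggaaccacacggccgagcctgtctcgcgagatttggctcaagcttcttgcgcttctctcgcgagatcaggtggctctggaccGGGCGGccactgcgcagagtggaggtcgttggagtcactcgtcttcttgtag
Ogdh, chr11:6291920-6292219, plus strand, 1 of its 6 windows: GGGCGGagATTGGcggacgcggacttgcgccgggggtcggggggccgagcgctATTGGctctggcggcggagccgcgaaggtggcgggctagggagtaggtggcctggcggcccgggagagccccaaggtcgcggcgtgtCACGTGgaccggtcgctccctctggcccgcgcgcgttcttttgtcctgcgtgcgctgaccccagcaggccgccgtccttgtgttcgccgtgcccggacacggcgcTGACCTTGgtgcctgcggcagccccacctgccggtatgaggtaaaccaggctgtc

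Of the rarer motifs, only the cAMP response element was found outside Ogdh. The ERR element was found in 1 of their 13 windows, the Ogdh window shown, and in 1.56% of all 32851 windows in the table. The window shown thus does not stand for the other Ogdh windows, and it held neither the NRF1 core nor the cAMP response element. The NRF1 core was found in 2 windows, both of Ogdh (1.75% of all windows), and the E-box in 3, all of Ogdh (7.15% of all). The cAMP response element was found in 3 windows of Ogdh and in that of Mdh2 (1.79% of all). Ogdh had 6 windows, which overlap in part, so that 1 site can be counted in several of them. Every other gene had 1 window, and so few windows cannot show a motif to be rare or common among these genes. The CCAAT box was in windows of 4 genes, Cs, Idh3b, Ogdh and Fh1 (37.4% of all windows), and the GC box in those of 5, Cs, Ogdh, Dlst, Fh1 and Mdh2 (35.7% of all). The windows of Idh3g and Suclg1 held none of the 6 motifs. These are matches of letters and were not tested against the expression values.

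The libraries had from 21559951 to 31069538 reads behind the FPKM values (fragments per kilobase of transcript, divided by library size). Both GA libraries (21559951 and 24611800 reads) were less deep than both DMSO libraries (31069538 and 25717834 reads). The 9 genes had at least 788 reads in every library, so that counting error was small beside their changes between the groups. Such values depend on what else a library holds, and the 10 genes with the most reads took 12.1% and 13.3% of reads with GA against 23.3% and 22.1% with DMSO. The median gene was 0.19 higher with GA on the log2 scale. The change of each of the 9 genes, and the counts called in each gene list, are therefore given both as deposited and with the log2 values of all libraries shifted to a common median. Values of other single genes are as deposited where no shift is named.
Fat cell markers (Adipoq, Fabp4, Plin1, Cidec, Lipe, Lpl, Pparg and Cebpa) were all higher with GA on both scales, with a summed level of 6067 and 5291 FPKM against 100.4 and 103 FPKM with DMSO. Of these, Cidec had 740.0 and 629 FPKM with GA, against 0.0281 and 0.0339 FPKM with DMSO. All 6 osteoblast markers were lower on both scales (summed 30408 and 34815 FPKM against 68953 and 65664). The 6 macrophage markers were higher as deposited (3191 and 2695 FPKM against 2402 and 2142), and 5 were after the shift, when Lyz2, which made up most of that sum, did not pass (0.09 on the log2 scale, with limma's adjusted p = 0.554). The 5 osteoclast markers tested of 6 were higher on both scales (summed over the 6, 915 and 856 FPKM against 299.7 and 285). Of 6 marrow stromal markers 5 were tested, and 3 were higher and 2 lower as deposited (summed over the 6, 1094 and 1093 FPKM against 360 and 371). After the shift 2 were higher and 2 lower, and Pdgfra did not pass (0.03 on the log2 scale, with limma's adjusted p = 0.674). Cxcl12 made up most of the stromal sum, with 926 and 920 FPKM with GA, against 220 and 228 FPKM with DMSO. No marker of these lists was at 0 in all libraries. The part of a shift in cell types in the values below was not tested, and in bulk RNA more cells of a type and more RNA per cell cannot be told apart.

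All 9 cycle genes rose with GA, by 1.32-fold to 2.80-fold in the ratio of mean FPKM. Each was tested with limma on log2(FPKM + 1) in a fit of all 12174 genes whose FPKM averaged 1 or more, and p-values were adjusted by Benjamini-Hochberg. With 0.05 as the limit, 9 of 9 were higher and 0 were lower, where 46.3% of all genes tested were called higher and 11.9% lower. After the shift to a common median 9 of 9 were still called higher, where 19.5% of all genes were called higher and 27.9% lower. The median log2 fold change of the 9 was 0.72 (0.49 after the shift), against 0.19 (-0.04 after the shift) over all genes tested. For each of the 9, the lower GA library exceeded the higher DMSO library, which was so for 62.5% of all genes tested. The thresholds of the study (log2 fold change over 0.5 with p, not adjusted, below 0.05) were applied to limma's values as deposited. They were met by 8 of the 9, all but Ogdh, and by 16.8% of all genes as rises. After the shift, Idh3a (1.20), Cs (0.92), Fh1 (0.65) and Idh3b (0.60) were over 0.5 on the log2 scale, and the others were not. Without the pooling of spread across genes, 7 of the 9 were called higher and 0 lower, where 16.6% of all genes were called higher and 3.52% lower, and Idh3g (adjusted p = 0.0658) and Fh1 (adjusted p = 0.0524 from the linear model per gene) were not.

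**Figure D1:**
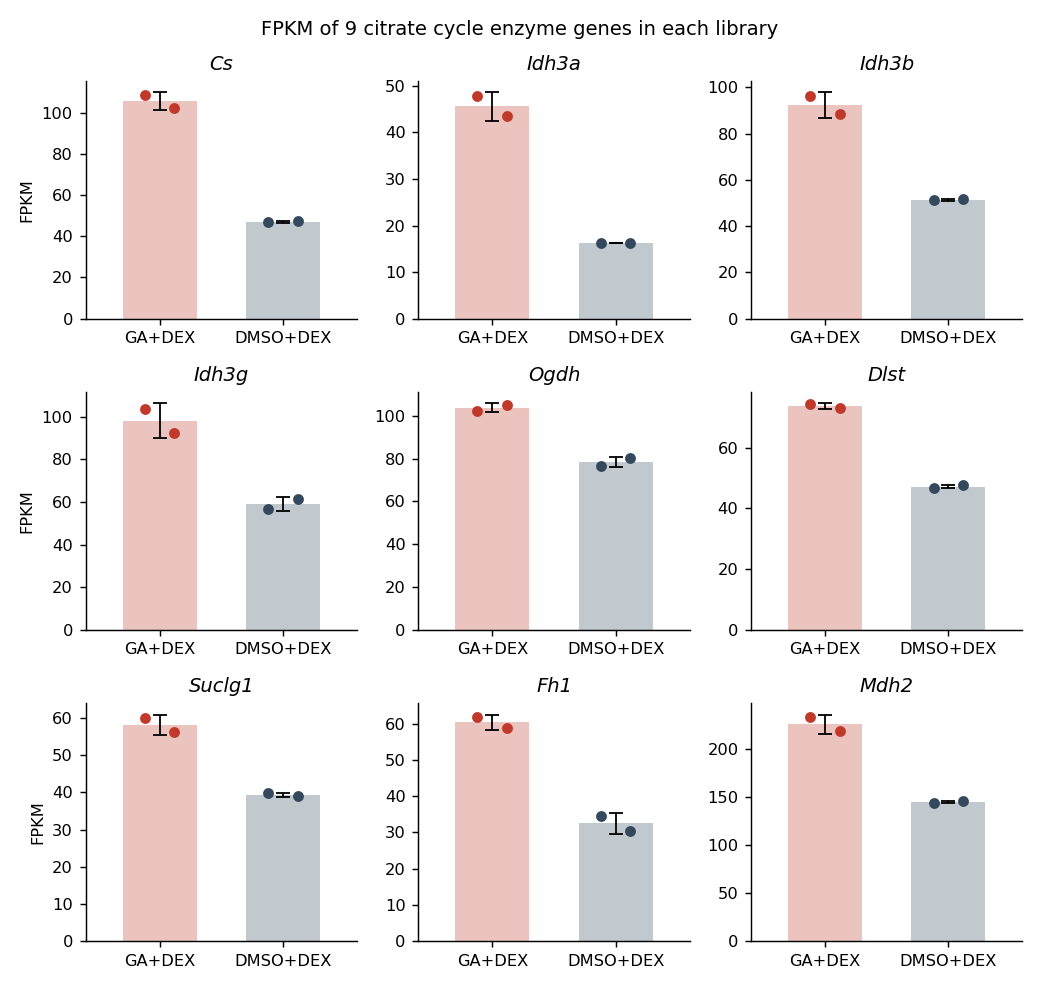
FPKM (vertical axes, each from 0) of the 9 citrate cycle enzyme genes in GA plus DEX (left) and DMSO plus DEX (right). Points are the 2 libraries of a group, bars their mean and whiskers the SD. In every panel both GA libraries lie above both DMSO libraries, with the widest gap relative to level in Idh3a and the narrowest in Ogdh.

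Cs, the gene of the entry step, had 108.6 and 102.5 FPKM with GA, against 46.7 and 47.2 FPKM with DMSO. The GA libraries were both more than 2-fold above the DMSO libraries, and the means of 105.5 ± 4.33 and 47.0 ± 0.362 FPKM (SD, n = 2 each) gave a 2.25-fold rise. Its log2 fold change was 1.15 (standard error 0.06, adjusted p = 3.24e-06 from limma), higher than that of 95.9% of all genes tested. After the shift to a common median it was 0.92.

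The 3 subunit genes of isocitrate dehydrogenase rose by unequal amounts. Idh3a, the catalytic α subunit, had 47.7 and 43.4 FPKM with GA, against 16.3 and 16.3 FPKM with DMSO. The 2 DMSO libraries were nearly equal, the groups were far apart, and the 2.80-fold rise was the largest of the 9 (log2 fold change 1.43 ± 0.06 SE, with limma's adjusted p = 2.11e-06, and 1.20 once shifted). Idh3b, the β subunit, had 96.2 and 88.3 FPKM with GA, against 51.1 and 51.8 FPKM with DMSO, a 1.79-fold rise (log2 fold change 0.83, or 0.60 once shifted). Idh3g, the γ subunit, had 103.8 and 92.4 FPKM with GA, against 56.5 and 61.4 FPKM with DMSO, a 1.66-fold rise. Idh3g thus had the widest spread of the 3 in both groups, yet its groups did not overlap (log2 fold change 0.72 ± 0.07 SE, or 0.49 once shifted). Idh3a was the lowest of the 9 in FPKM in both groups, and the 3 genes kept their order, Idh3g over Idh3b over Idh3a, in all 4 libraries. Idh3b and the antisense gene Nop56 share 5 exon bases in GENCODE M21, and the strand setting of the counts is not given in the sources used here.

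The α-ketoglutarate dehydrogenase genes both rose. Ogdh, the first component, had 102.4 and 105.2 FPKM with GA, against 76.7 and 80.1 FPKM with DMSO. This 1.32-fold rise was the smallest of the 9 (log2 fold change 0.40 ± 0.05 SE, with limma's adjusted p = 6.34e-04), although both GA libraries were above both DMSO libraries. After the shift to a common median its log2 fold change was 0.17 (limma's adjusted p = 0.0293), still a rise. Dlst, the lipoate-bearing component, had 74.3 and 73.0 FPKM with GA, against 46.8 and 47.6 FPKM with DMSO. It rose 1.56-fold with little spread in either group (log2 fold change 0.63, or 0.40 once shifted).

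The genes of the last steps rose by 1.48-fold to 1.86-fold. Suclg1, the α subunit that both forms of succinyl-CoA ligase use, had 60.2 and 56.4 FPKM with GA, against 39.7 and 38.9 FPKM with DMSO, a 1.48-fold rise (log2 fold change 0.55, and 0.32 after the shift). Fh1, fumarase, had 61.9 and 58.9 FPKM with GA, against 34.5 and 30.4 FPKM with DMSO, a 1.86-fold rise (log2 fold change 0.88 ± 0.07 SE, or 0.65 once shifted). Its DMSO libraries had the widest spread of any member's pair, with an SD of 8.81% of their mean. Mdh2, malate dehydrogenase, had the highest FPKM of the 9 in both groups, with 233 and 219 FPKM with GA, against 144.0 and 146 FPKM with DMSO. It rose 1.56-fold (log2 fold change 0.64, and 0.41 after the shift).

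**Figure D2:**
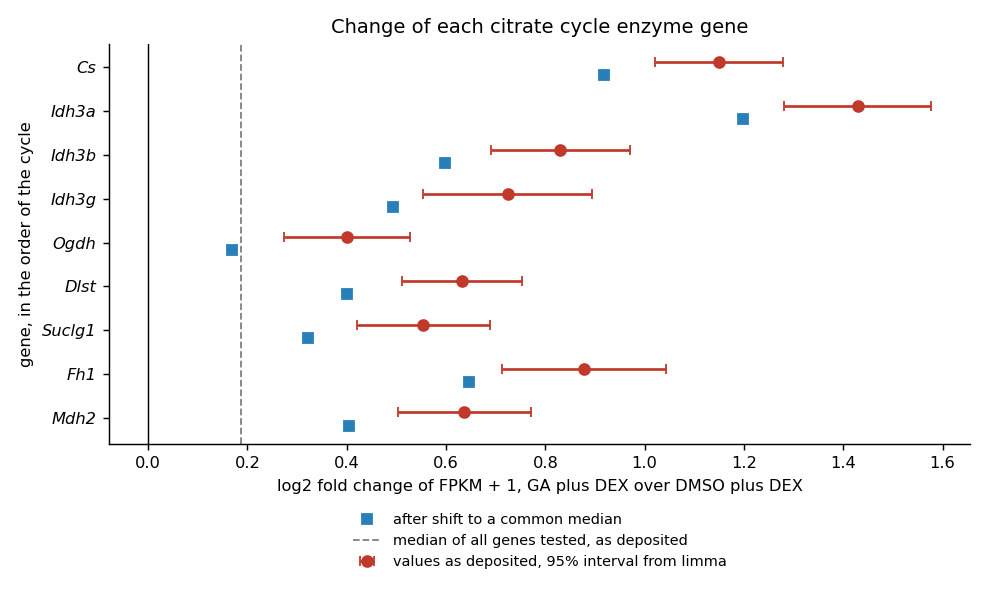
Log2 fold change of FPKM + 1 (horizontal axis, GA plus DEX over DMSO plus DEX) for the 9 genes in the order of the cycle. Red points are values as deposited with 95% intervals from limma, blue squares the values once shifted to a common median, and the dashed line the median of all genes tested (0.19). All points lie right of 0, with red points from 0.40 (Ogdh) to 1.43 (Idh3a) and blue squares from 0.17 to 1.20.

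The rises also changed the make-up of the 9 transcripts. Their FPKM summed to 888 and 839 with GA, against 512 and 520 with DMSO. Idh3a took 5.37% and 5.17% of that sum with GA, against 3.17% and 3.14% with DMSO, and Cs took 12.2% and 12.2%, against 9.12% and 9.09%. The share of Ogdh was lower with GA, at 11.5% and 12.5%, against 15.0% and 15.4% with DMSO, and so was that of Mdh2, at 26.3% and 26.1%, against 28.1% and 28.1%. By mean FPKM Cs stood in place 2 of the 9 with GA and in place 6 with DMSO, but both places were near ties. With GA the mean was 105.5 FPKM for Cs and 103.8 FPKM for Ogdh, and Ogdh was above Cs in GA replicate 2. With DMSO the mean was 47.0 FPKM for Cs and 47.2 FPKM for Dlst.

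A ratio of 2 genes within a library does not depend on how the libraries were scaled, so each step was set against the entry enzyme. The test was limma's on all genes after the log2(FPKM + 1) of Cs was subtracted in each library. Because 1 was added to each FPKM, the tested difference is not exactly the log2 of the FPKM ratio. In such a fit the error of Cs enters every gene, and the spread pooled across genes (10.0 degrees of freedom) then counts it many times over. The adjusted p with each gene's own spread (2 degrees of freedom) is therefore given after the one from limma. With each gene's own spread, 341 genes were called higher and 10813 lower relative to Cs. How far the adjustment raises a p-value depends on how many genes moved relative to the reference. Adjusted p-values are therefore not comparable between reference genes. The ratio of Idh3a to Cs in FPKM was 0.439 and 0.424 with GA, against 0.348 and 0.345 with DMSO. Idh3a was the only member to rise relative to Cs (difference of the log2(FPKM + 1) changes 0.28, adjusted p = 0.00188 from limma, and 0.0138 with its own spread, 95% interval 0.17 to 0.39), where 3.20% of all genes rose relative to Cs.
The other 7 genes fell relative to Cs, by 0.27 (Fh1) to 0.75 (Ogdh) on the log2 scale. As 94.1% of all genes tested fell relative to Cs, this count describes the high place of Cs and is no result about the other 7. The ratio of Ogdh to Cs was 0.943 and 1.03 with GA, against 1.64 and 1.70 with DMSO, so that the transcript of higher FPKM was Ogdh by a wide margin with DMSO, while the 2 were nearly level with GA. The ratio of Fh1 to Cs was 0.570 and 0.575 with GA, against 0.738 and 0.644 with DMSO, and this fall did not pass with its own spread (adjusted p = 0.108, 95% interval -0.68 to 0.14) or without DMSO replicate 1 (-0.18, adjusted p = 0.101 from limma).

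Subunits of 1 enzyme were compared in the same way, over 3 pairs. The ratio of Idh3a to Idh3b in FPKM was 0.496 and 0.492 with GA, against 0.318 and 0.315 with DMSO. Libraries of a group agreed closely, and the ratio was 1.56-fold higher with GA. The difference of the log2(FPKM + 1) changes was 0.60 (adjusted p = 4.08e-06 from limma, 95% interval 0.43 to 0.77). With its own spread the adjusted p was 0.0176 and the interval 0.56 to 0.64, which rests on the close agreement of 2 libraries per group. The lowest read counts were 1007 for Idh3a and 788 for Idh3b, so this interval may be narrower than counting error allows. In limma's fit 4.94% of all genes rose relative to Idh3b, and in the linear model per gene 481 of 12173 did. The ratio of Idh3a to Idh3g was 0.460 and 0.470 with GA, against 0.288 and 0.266 with DMSO, 1.68-fold higher. Here limma pooled the spread almost wholly (24346 degrees of freedom) and called 5.32% of all genes higher relative to Idh3g. For Idh3a the difference of the log2(FPKM + 1) changes was 0.70, with an adjusted p of 1.75e-07 from limma. In the linear model per gene (95% interval 0.45 to 0.96) p was 0.00691 before adjustment and 0.0611 after. That model called 56 genes higher and 66 lower relative to Idh3g. The call was thus not made without the pooling, but the adjusted p also depends on how many genes moved relative to Idh3g. The ratio of Ogdh to Dlst was 1.38 and 1.44 with GA, against 1.64 and 1.68 with DMSO. It was lower with GA by a modest amount (difference of the log2(FPKM + 1) changes -0.23, adjusted p = 0.0036 from limma, and 0.0425 with its own spread, 95% interval -0.39 to -0.08). In limma's fit 78.3% of all genes fell relative to Dlst, and in the linear model per gene 6810 of 12173 did.

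**Figure D3:**
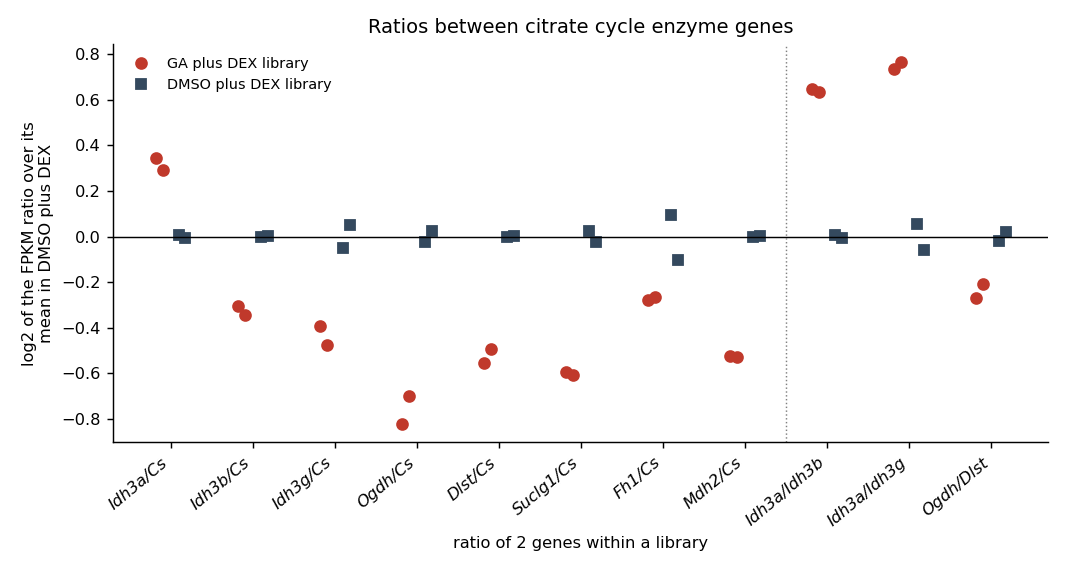
Ratio of the FPKM of 2 genes in each library, as log2 over the mean ratio in DMSO plus DEX (vertical axis), for 8 genes over Cs (left of the dotted line) and 3 pairs of subunits (right). Red circles are GA plus DEX libraries and dark squares DMSO plus DEX libraries. Idh3a lies above 0 in GA against Cs, Idh3b and Idh3g, and the other ratios lie below 0 in GA.

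The remaining genes of the same cycle rose too. All 8 of them that were listed were called higher, with a median log2 fold change of 0.59, and 7 once shifted to a common median, Sdhb (0.16, adjusted p = 0.0593) being the exception. Dld, the component that α-ketoglutarate dehydrogenase shares with pyruvate dehydrogenase, had 64.6 and 59.6 FPKM with GA, against 30.0 and 30.5 FPKM with DMSO, a 2.05-fold rise. Sdha, the flavoprotein of succinate dehydrogenase, rose 1.82-fold. The partners of Suclg1, the ADP-forming β subunit Sucla2 (1.48-fold) and the GDP-forming Suclg2 (1.57-fold), rose beside the 1.48-fold rise of Suclg1 itself.
Of 11 genes of the pyruvate dehydrogenase complex, which makes acetyl-CoA from pyruvate, and of its kinases and phosphatases, 9 were higher, 1 lower and 1 did not pass (7 higher and 1 lower after the shift). Dlat (2.13-fold) and Pdhb (2.04-fold), both of the complex itself, and the inhibitory kinase gene Pdk2 (2.27-fold) had the largest changes. The 1 called lower was the kinase gene Pdk4, with 117.8 and 113.5 FPKM with GA, against 129.4 and 131.7 FPKM with DMSO (log2 fold change -0.17, and -0.41 after the shift), named here after its values were seen.

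Isozymes that act on the same metabolites in the cytosol or beside the cycle rose in 6 of 7 cases, also after the shift. Aco1, the cytosolic aconitase and iron regulatory protein, had 192.6 and 179.5 FPKM with GA, against 54.0 and 55.0 FPKM with DMSO, a 3.41-fold rise that was larger than that of any of the 9. Idh1, the cytosolic NADP-dependent isocitrate dehydrogenase, rose 2.33-fold and Mdh1, the cytosolic malate dehydrogenase, 2.03-fold. The log2 fold change was 1.01 for Mdh1 and 0.64 for Mdh2, and it was 1.21 for Idh1 and 0.44 for Idh2, the mitochondrial NADP-dependent form. The differences between these forms were not tested. The exception was Ogdhl, a relative of Ogdh, with 3.63 and 4.02 FPKM with GA, against 6.47 and 5.76 FPKM with DMSO (log2 fold change -0.56, adjusted p = 0.00137 from limma), so that it went against the rise of Ogdh.
Genes that feed or drain the cycle were mixed. Of 11 tested, 7 were higher, 2 lower and 2 did not pass (5 higher and 3 lower after the shift). Pcx, pyruvate carboxylase, which makes oxaloacetate, had 114.7 and 107.6 FPKM with GA, against 12.5 and 13.4 FPKM with DMSO. Pck1, the cytosolic enzyme that turns oxaloacetate into phosphoenolpyruvate, had 2.10 and 2.04 FPKM with GA and was listed at 0 in both DMSO libraries, while its mitochondrial form Pck2 had 17.1 and 18.8 FPKM with GA, against 35.2 and 34.0 FPKM with DMSO. The other call in the lower direction was Got1, a cytosolic aspartate aminotransferase (log2 fold change -0.64). The malic enzyme gene Me2 (log2 fold change 0.06, adjusted p = 0.407 from limma) did not pass, although it was called lower after the shift (-0.17, adjusted p = 0.0399).

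Lipoate is the cofactor of Dlst, and all 8 genes listed for its synthesis and attachment were higher (median log2 fold change 0.48), of which 4 remained called after the shift. Over all genes tested, 46.3% were called higher as deposited and 19.5% after the shift, and this background holds for every list here. Lias, lipoate synthase, rose 1.67-fold, Mecr, a reductase of mitochondrial fatty acid synthesis, 1.48-fold and Bola3, an iron-sulfur cluster factor, 1.47-fold. A list of 15 genes of mitochondrial structure, import and upkeep outside the cycle was set beside these, and it does not stand for mitochondrial genes in general. All 15 were higher, with a median log2 fold change of 0.43, and 8 were called higher and 0 lower after the shift (median 0.20). Hspd1, a chaperonin of the matrix, had the largest change of them (2.18-fold), and the inner membrane gene Immt rose 1.65-fold and the prohibitin gene Phb 1.60-fold. The median of the 9 cycle enzymes (0.72) stood above that of this list, and Ogdh (0.40) stood below it. These lists were compared by counts and medians only, and the difference between them was not tested.

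**Figure D4:**
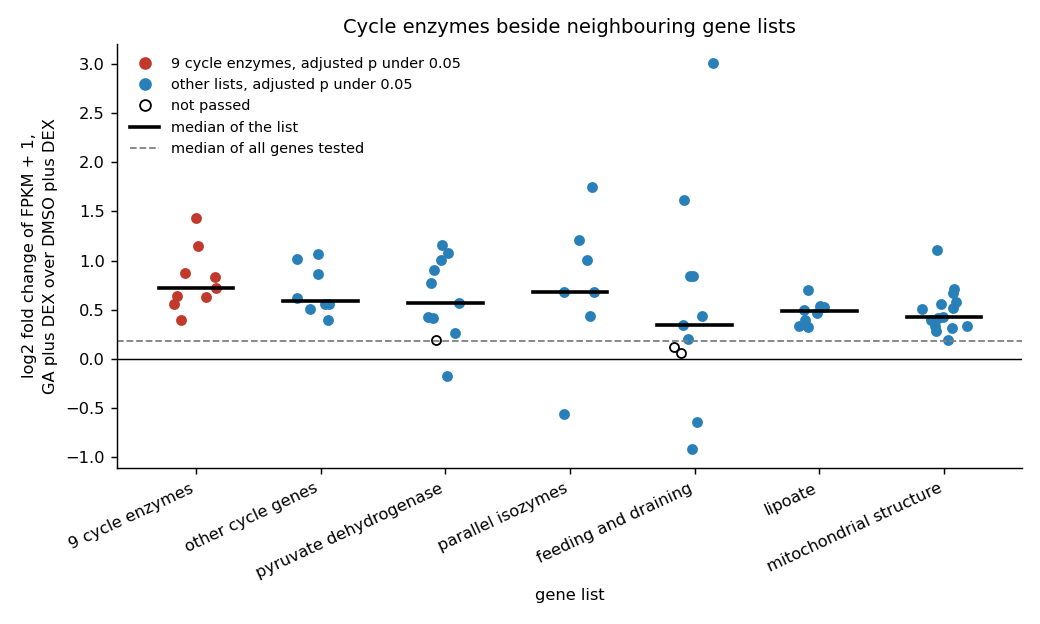
Log2 fold change of FPKM + 1 (vertical axis, GA plus DEX over DMSO plus DEX) of single genes in the 9 cycle enzymes (red) and 6 neighbouring lists (blue), with open circles for genes that did not pass. Thick lines are list medians, from 0.72 for the 9 enzymes to 0.35 for genes that feed or drain the cycle, and the dashed line is the median of all genes tested (0.19).

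Over the 4 libraries, the genes nearest to the mean profile of the 9 (Euclidean distance of centred log2 values, among 7034 genes that averaged 10 FPKM or more) were Zhx1, Mif4gd, Gnptab, Znrf2 and Sgcd, at distances of 0.02 to 0.04. Among the 9 themselves Idh3b was nearest to their mean, at 0.04, and Idh3a farthest, at 0.63, followed by Ogdh at 0.41. With 4 libraries in 2 groups this likeness reflects the size of the change and little else.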

How the data were processed

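mBMSC RNA was sequenced by a commercial service. The authors deposited FPKM values, with 1 column per library matched by its title. Build mm9, HTSeq 0.6.1, TopHat2 2.0.12 and Bowtie2 2.2.3 are listed in the processing notes of the submitters, with no roles. Which annotation, gene lengths and strand were used is not given, and no scaling between libraries beyond FPKM is stated. Symbols were matched by identifier for 46488 of 47069 genes.

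Genes that averaged 1 FPKM or more entered a limma fit of log2(FPKM + 1) (limma 3.58.1, R 4.3.3, eBayes with trend, 5.38 prior and 2 residual degrees of freedom, two-sided, Benjamini-Hochberg over all genes tested). Such fold changes understate those of low genes. Depth was read from the step of 1 read (shared by 1279 to 1371 genes per library). Whole reads were then sought over gene lengths (tolerance 1e-04 of a read). The smallest solution was used, so reads per gene are lower bounds. Named from each list were the 3 largest changes, up to 2 abundant genes that did not pass, and single exceptions chosen after their values were seen. Some genes that this rule names are not reported here. Members and lists were chosen with earlier results of these data known. Figures used matplotlib 3.10.9. The fit of single genes was also run on simulated counts, drawn with the same added spread for every gene. The ratio tests were not run on them, and the outcome is not given here. The alternatives tried are given after the report.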

Additional observations from a re-analysis of the deposited data

How the results depend on the processing

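The 9 genes were called higher under 14 of the 15 alternatives, and 7 were under a linear model per gene without moderation. None was called lower under any. The alternatives were pseudocounts of 0.1 and 5, no minimum FPKM or one of 5, 3 other scalings, limma without trend, no moderation, each of the 4 libraries left out, the replicate number as a block, and limma's voom on recovered reads. The median log2 fold change of the 9 was 0.49 after the shift to a common median, 0.53 after quantile normalization, 0.55 without the 10 genes with the most reads in the denominator and 0.52 with voom, where the median gene moved by -0.04, -0.04, 0.03 and 0.00. It ran from 0.64 to 0.81 with 1 library left out. Idh3a alone rose relative to Cs under all 15, with a log2 change from 0.16 to 0.32. Under the alternatives 6 or 7 genes fell, but 94.1% of all genes tested fell relative to Cs in the main fit. The count of falls is thus no result about these genes. Without moderation the rise of Idh3a over Idh3g (0.70) had an adjusted p = 0.0611, and Fh1 relative to Cs (-0.27) one of 0.108. The pairs Idh3a over Idh3b and Ogdh over Dlst passed under all 15.

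Over all genes, 5639 were called higher and 1454 lower, against 2380 and 3392 after the shift, 2394 and 3273 after quantile normalization, 3144 and 2567 without the 10 top genes, 2929 and 3061 with voom, and 2021 and 428 without moderation. The labels give both groups replicates 1 and 2 but nothing that they share, and the replicate differences of the groups were not correlated across genes (r = -0.03). With the replicate block 5528 genes were higher and 1433 lower, and 9 of the 9 stayed higher (median 0.72). With 2 libraries per group, Idh3g and Fh1 had the widest spread of the 9.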
